A study of Mus musculus with 6 samples.

Results

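Immunoglobulin heavy chain variable (*Ighv*) genes were followed in RNA-Seq libraries of mouse retinal cells sorted to enrich retinal ganglion cells (RGCs), which send their axons through the optic nerve to the brain. A member was a gene whose symbol begins with Ighv and which had 10 or more counts in at least 1 of 6 libraries. Of 55573 genes in the count table, 185 carried such a symbol and 79 passed, all of them annotated as V genes. The other 106 stayed under 10 counts in every library, and 78 of them were at 0 throughout. The mice were adult C57BL/6J animals, aged 6 to 10 weeks, whose vitreous body had received AAV2-*GFP* (control group, 3 libraries) or AAV2-*Ezh2* (*Ezh2* overexpression group, 3 libraries). Optic nerve crush followed 2 weeks after the injection in both groups, and live cells positive for CD90.2, the product of *Thy1*, were sorted 3 days after the crush. *Ezh2* encodes the histone methyltransferase of the Polycomb repressive complex PRC2. Nothing in the labels says whether the libraries of a group came from separate animals, so p values measure the spread between libraries, which may be technical.

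A heavy chain gene is assembled in a developing B cell by joining 1 V, 1 D and 1 J segment on chromosome 12. The joined V segment is then transcribed together with a constant region, such as *Ighm* of IgM or *Igha* of IgA. B cells carry the product on their surface and plasma cells, their antibody-secreting descendants, transcribe it at very high levels. A clone of such cells uses a single V gene, so the share of each V gene among the heavy chain reads of a tissue depends on which clones are present and on how much RNA each makes. Neurons are not known to assemble these genes. In bulk libraries such as these, fewer cells of a type and less RNA per cell cannot be told apart.

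Because many V genes are close copies, the sequences of the members with the clearest group differences are shown beside their nearest relatives. Each line is a stretch of 130 bases from the coding part of the V exon, read 5′ to 3′ on the transcribed minus strand of build GRCm38 and taken from the GENCODE M21 transcripts. The stretch spans the first and second complementarity determining regions, which contact antigen. Capitals mark the positions at which the sequences of a set differ. The first set holds *Ighv1-84*, which was abundant in every control library and nearly absent from the Ezh2 libraries, beside *Ighv1-75*, its closest copy in the table, and *Ighv1-66*, a leading gene of the control group.
Ighv1-84, chr12:115980807-115980936: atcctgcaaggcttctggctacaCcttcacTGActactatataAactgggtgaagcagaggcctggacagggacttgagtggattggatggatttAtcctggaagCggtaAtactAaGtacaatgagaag
Ighv1-75, chr12:115834055-115834184: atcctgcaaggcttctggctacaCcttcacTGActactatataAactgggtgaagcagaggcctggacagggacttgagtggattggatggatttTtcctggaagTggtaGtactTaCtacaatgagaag
Ighv1-66, chr12:115593215-115593344: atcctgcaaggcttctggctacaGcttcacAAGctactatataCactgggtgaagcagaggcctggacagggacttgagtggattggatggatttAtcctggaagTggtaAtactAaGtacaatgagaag

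*Ighv1-84* differed from *Ighv1-75* at 5 of these bases and at 13 of 351 aligned transcript bases, and the longest stretch they shared was 142 bases. It differed from *Ighv1-66* at 15 of 351 bases. The second set holds *Ighv1-80*, which had no count in any control library, and its nearest relative *Ighv1-82*. They differed at 6 bases of the stretch and at 16 of 351 bases of the transcript, with a longest shared run of 59 bases.
Ighv1-80, chr12:115912449-115912578: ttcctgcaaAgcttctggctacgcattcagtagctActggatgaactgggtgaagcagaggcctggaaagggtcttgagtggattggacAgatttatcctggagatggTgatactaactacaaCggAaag
Ighv1-82, chr12:115952643-115952772: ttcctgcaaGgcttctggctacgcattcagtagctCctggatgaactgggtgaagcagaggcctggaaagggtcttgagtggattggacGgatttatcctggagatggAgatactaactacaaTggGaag

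The third set holds *Ighv1-22* and *Ighv1-34*, both many times higher in the Ezh2 libraries, and their relative *Ighv1-26*, whose counts overlapped between the 2 groups. Every pair among these 3 genes differed at 12 of 351 bases.
Ighv1-22, chr12:114746378-114746507: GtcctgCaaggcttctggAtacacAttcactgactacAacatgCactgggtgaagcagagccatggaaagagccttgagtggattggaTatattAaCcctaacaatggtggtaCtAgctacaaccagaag
Ighv1-34, chr12:114851295-114851424: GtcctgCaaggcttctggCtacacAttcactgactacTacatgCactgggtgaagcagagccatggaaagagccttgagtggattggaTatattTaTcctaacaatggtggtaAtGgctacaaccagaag
Ighv1-26, chr12:114788477-114788606: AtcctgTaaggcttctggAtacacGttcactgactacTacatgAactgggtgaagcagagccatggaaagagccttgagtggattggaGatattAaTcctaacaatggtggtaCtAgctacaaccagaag

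Near copies limit what a count per gene means here. The median member was 95.1% identical to its nearest other *Ighv* gene, with a range of 79.8% to 99.7%, and 13 members were at least 97% identical to another one. Of all 50-base windows of a member, a median of 21.2% also occurred in another *Ighv* gene, 11 members had no such window and 9 had more than 50%. A read from a shared window may be counted for either copy or dropped, and the authors' counting rule was not given in the sources used here. *Ighv1-71* and *Ighv1-62-2*, for example, were 99.7% identical, and their counts are uncertain to that extent.

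The libraries held between 30569933 and 35971192 counts, so that a count of 0 allows up to 3 counts, or 0.0834 to 0.0981 CPM (counts scaled to the library total). These limits cover counting error only. *Ezh2* itself lay at 28.8, 34.6 and 33.0 CPM in the control libraries and at 78.0, 65.3 and 104.8 CPM in the Ezh2 libraries. Of 10 RGC markers, *Thy1* had 2760 to 4095 counts, but the cells were sorted by its product. The transcription factors *Pou4f1* and *Pou4f2* were at or near 0, with 0 to 19 and 0 to 3 counts. *Rbpms* had 501 to 671 counts, *Isl1* 215 to 356, *Nefl* 288 to 540 and *Slc17a6* 125 to 294. T cell markers summed to 522 to 560 CPM in the control libraries, 670 and 697 CPM in Ezh2 replicates 2 and 1, and 1162 CPM in Ezh2 replicate 3, which also had 15088 counts of *Irf4* against 1601 to 2279 elsewhere. The study left out 1 unnamed Ezh2 library, and its heatmap columns point to Ezh2 replicate 3. The main comparison therefore set 2 Ezh2 libraries, replicates 1 and 2, against the 3 control libraries, and values are given for all 6 libraries beside it.

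*Ighv* transcripts were plentiful in every library. Their summed level in the control libraries was 1210, 1283 and 1130 CPM, and in the Ezh2 libraries it was 1553, 1366 and 812 CPM. The control group averaged 1208 ± 76.3 CPM (SD, n = 3), compared to 1460 ± 132 CPM (SD, n = 2) for Ezh2 replicates 1 and 2 and 1244 ± 385 CPM (SD, n = 3) for all Ezh2 libraries. The groups overlapped once Ezh2 replicate 3, the lowest library, was counted. For every 100 counts of heavy chain constant regions there were 28.0, 28.3 and 27.1 *Ighv* counts in the control libraries and 27.9, 28.1 and 25.7 in the Ezh2 libraries, so V and constant parts of the transcripts kept nearly the same proportion. Pseudogenes of the locus added only 20, 23, 14, 22, 21 and 1 counts in the same order of libraries.

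Usage was spread over more genes in the Ezh2 libraries. The 10 most used genes of a library took 78.6%, 75.4% and 76.0% of its *Ighv* counts in GFP replicates 1 to 3, but 65.3%, 69.2% and 62.5% in Ezh2 replicates 1 to 3. The inverse Simpson number, which equals the number of genes if all are used equally and falls as a few dominate, was 11.1, 14.0 and 12.9 in the control libraries and 18.1, 17.1 and 20.5 in the Ezh2 libraries. Neither measure overlapped between the groups. The number of members with at least 1 count was 56, 59 and 59 in the control libraries and 62, 66 and 63 in the Ezh2 libraries. When all libraries were brought to 29223 *Ighv* counts, the smallest total, the expected numbers were 55.9, 58.4 and 58.5 against 60.5, 65.0 and 63.0.

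A small set of genes dominated each library. *Ighv3-6* led in GFP replicate 1 with 19.3% of *Ighv* counts, and *Ighv1-52* led in GFP replicates 2 and 3 with 14.9% and 15.9%. In the Ezh2 group, *Ighv3-6* led in replicate 1 with 9.99%, just ahead of *Ighv1-22* with 9.97%, and in replicate 3 with 10.5%. *Ighv1-22* led in Ezh2 replicate 2 with 11.8%. These shares are of raw counts, and the members' transcripts run from 347 to 480 bases, with a median of 356. Counts per transcript length gave the same leading gene in 6 of 6 libraries and 9 of the same 10 leading genes.

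**Figure D1:**
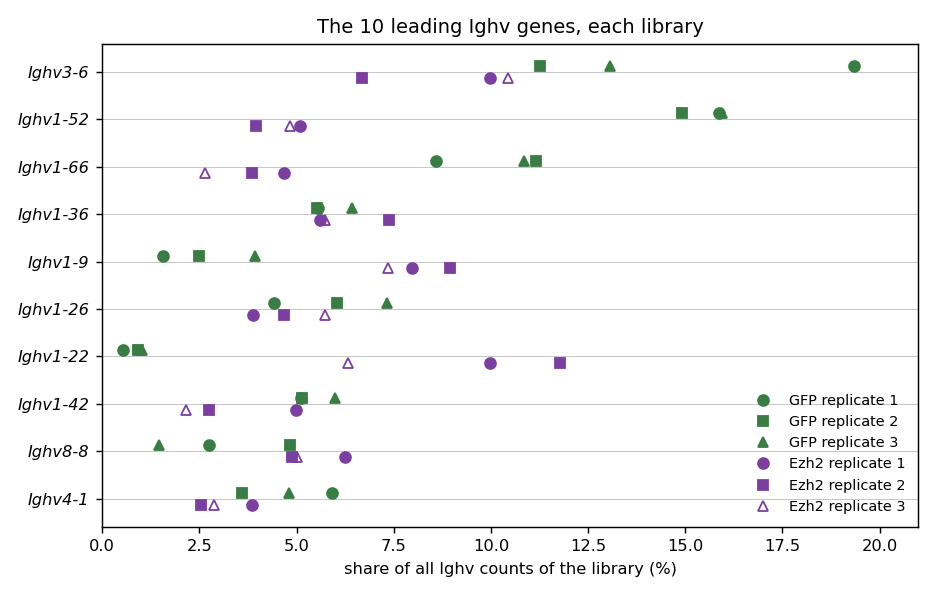
Share of all *Ighv* counts of a library (x axis, percent) for the 10 genes with the largest mean share over 6 libraries (y axis), with 1 point per library, green for the control group and purple for the Ezh2 group (open triangle, Ezh2 replicate 3). *Ighv1-52* and *Ighv1-66* lie to the right in all 3 control libraries and *Ighv1-9* and *Ighv1-22* in all 3 Ezh2 libraries, while *Ighv1-36* and *Ighv1-26* overlap.

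Among these 10 leading genes, *Ighv3-6* (ENSMUSG00000076672, chr12:114288152-114288582) had 7152, 4575 and 4540 counts in the control libraries and 4996, 3201 and 3054 in the Ezh2 libraries. The groups overlapped, and its log2 fold change of -0.50 ± 0.19 (SE) missed the threshold (edgeR adjusted p = 0.0796). It ran from -0.92 without Ezh2 replicate 1 to -0.18 without Ezh2 replicate 2, and the gene was called lower without Ezh2 replicate 1 (edgeR adjusted p = 0.00256) and without GFP replicate 2 (-0.63, edgeR adjusted p = 0.0459). *Ighv1-52* (ENSMUSG00000095204, chr12:115145487-115145919) had 5866, 6061 and 5538 counts in the control libraries against 2549, 1889 and 1415. It was lower in all Ezh2 libraries, with a log2 fold change of -1.49 ± 0.10 (edgeR adjusted p = 7.91e-08). Its transcript is 98.6% identical to that of *Ighv1-61* and shares 67.2% of its 50-base windows with other *Ighv* genes, but *Ighv1-61* itself had at most 4 counts in a library. *Ighv1-66* fell from 3175, 4534 and 3771 counts to 2345, 1846 and 773, with a log2 fold change of -0.97 ± 0.12 (edgeR adjusted p = 3.95e-05), and kept its call in 10 of 13 alternative fits.

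*Ighv1-22* (ENSMUSG00000094561, chr12:114746273-114746706) rose most among the leading genes. It had 202, 373 and 359 counts in the control libraries and 4989, 5640 and 1847 in the Ezh2 libraries, which is 0.546% to 1.03% of *Ighv* counts against 6.32% to 11.8%. The log2 fold change was 3.99 ± 0.14 (edgeR adjusted p = 1.57e-11). *Ighv1-9* rose from 575, 1016 and 1362 counts to 3993, 4277 and 2147, a log2 fold change of 1.97 ± 0.19 (edgeR adjusted p = 3.25e-06), and kept its call in 11 of 13 alternative fits. *Ighv8-8* had 1018, 1966 and 512 counts against 3129, 2334 and 1465. It was called higher with 5 libraries (1.14 ± 0.30, edgeR adjusted p = 0.016), but the groups overlapped and the call held in only 7 of 13 alternative fits.

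The other 4 leading genes were not called. *Ighv1-36* had 2057 to 2241 counts in the control libraries and 2800, 3531 and 1674 in the Ezh2 libraries, and its log2 fold change of 0.43 ± 0.07 was under the fold change threshold of 1.5 (edgeR adjusted p = 4.68e-04). *Ighv1-26*, *Ighv1-42* and *Ighv4-1* had log2 fold changes of -0.19 ± 0.12, -0.18 ± 0.18 and -0.27 ± 0.17, with edgeR adjusted p values of 0.34, 0.548 and 0.331. All of these overlapped between the groups.

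Across the genome, edgeR's quasi-likelihood test called 754 of 20241 tested genes, or 3.73%. A called gene changed by more than 1.5-fold and had a Benjamini-Hochberg adjusted p below 0.05. Of the 79 *Ighv* genes, 65 had enough counts to be tested and 14 did not. The test called 28 of the 65, or 43.1%, of which 16 were higher and 12 lower in the Ezh2 libraries, beside 2.45% of all genes called higher and 1.27% called lower. Passing the count limits favours genes that are high in 1 group: 10 members reached 10 counts only in control libraries and 14 only in Ezh2 libraries, and these made up 6 and 5 of the 28 calls. The median log2 fold change of the tested members was 0.09, close to the -0.01 of all tested genes, but their median absolute log2 fold change was 1.49 against 0.19. Fold changes of the members thus lay further from 0 than those of most genes, in both directions.

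The number of members called differed between fits. Among genes with at least 100 counts on average, the median coefficient of variation of the members was 47.8% within the control group and 36.6% between Ezh2 replicates 1 and 2, compared to 5.41% and 4.97% over all such genes. edgeR's default moves each gene's spread toward that of genes of similar abundance, which is narrower than the members' own. Robust estimation, chosen after seeing the data, lets such genes keep their own spread and called 11 members, 9 higher and 2 lower. Its count over all genes, 770, was close to the main one. Standard errors and p values of single members are those of the default. With robust estimation the edgeR adjusted p was 0.0221 for *Ighv1-52*, 0.00441 for *Ighv1-22* and 0.0684 for *Ighv1-9*. For *Ighv1-84* and *Ighv1-80* it was smaller than by default, at 2.30e-24 and 2.59e-15. DESeq2 called 18 members, beside 692 of 20241 genes. With all 6 libraries edgeR called 13 of 57 tested members, or 22.8%, beside 2.41% of all genes. These 13 were 9 higher and 4 lower, beside 1.6% and 0.811% of all genes. A total of 9 members kept their call and direction in the main fit and in all 13 alternative fits, 7 of them higher and 2 lower. Below, every fit means these fits. The fit with summed copies of 97% identity is not among them, since in it *Ighv1-52* and *Ighv2-5* were summed with near copies. How many of all genes kept their call in this way was not counted.

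**Figure D2:**
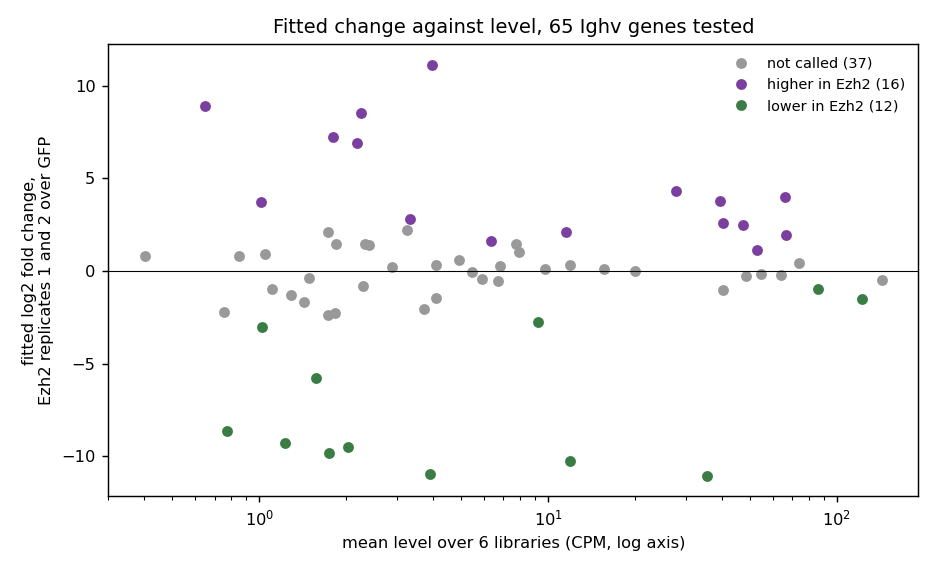
Fitted log2 fold change of Ezh2 replicates 1 and 2 over the control group (y axis) against the mean level over 6 libraries (x axis, CPM, log axis) for the 65 *Ighv* genes tested, with the 16 called higher in purple, the 12 called lower in green and the others in grey. Fitted values beyond about 7 in either direction belong to genes at or near 0 in 1 group and depend on the prior count of the fit.

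The 9 members called in every fit had no overlap between the 3 control and the 3 Ezh2 libraries. They were chosen by calls from these same libraries, so the lack of overlap adds no separate support. *Ighv1-84*, *Ighv1-80*, *Ighv2-5* and *Ighv13-2* among them reached 10 counts in only 1 group. *Ighv1-84* (ENSMUSG00000094940, chr12:115980702-115981134) had 2270, 2363 and 1986 counts in the control libraries and 0, 2 and 1 in the Ezh2 libraries. The ratio of summed counts scaled to library totals, control over Ezh2 replicates 1 and 2, was 2394 with a 95% exact counting interval of 662 to 19770 (log2 fold change -11.04 ± 0.23, edgeR adjusted p = 4.97e-14). It made up 6.14%, 5.82% and 5.72% of control *Ighv* counts, and was thus a much used gene of 1 group that was nearly missing from the other. *Ighv1-75*, its closest copy, went the other way, with 0, 0 and 96 counts against 147, 180 and 238, and did not pass the test (2.23 ± 0.87, edgeR adjusted p = 0.0949). *Ighv1-52*, given above, was the other member lower in every fit.

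*Ighv1-80* (ENSMUSG00000094075, chr12:115912344-115912776) showed the opposite pattern to *Ighv1-84*. It had 0 counts in all 3 control libraries and 271, 320 and 227 in the Ezh2 libraries, which makes it at least 90.6-fold higher in Ezh2 replicates 1 and 2 and at least 82.1-fold higher over all 3, taking 3 counts per library as the limit for 0 (edgeR adjusted p = 4.26e-09). *Ighv1-34* (ENSMUSG00000093955, chr12:114851190-114851660) rose from 71, 91 and 131 counts to 1969, 2222 and 1177 (4.31 ± 0.14, edgeR adjusted p = 8.63e-12). *Ighv1-55* rose from 425, 638 and 536 counts to 2367, 4120 and 1461 (2.49 ± 0.16, edgeR adjusted p = 3.95e-08). All 3 control libraries lay well below all Ezh2 libraries for each of these genes.

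*Ighv1-64* had 557, 419 and 220 counts in the control libraries and 2624, 2541 and 1794 in the Ezh2 libraries (2.59 ± 0.20, edgeR adjusted p = 2.81e-07). *Ighv2-5* had 0, 0 and 1 counts against 151, 214 and 96, a ratio of summed counts of 505 with a 95% exact interval of 90.0 to 19986 (edgeR adjusted p = 2.31e-08). It is 97.7% identical to *Ighv2-4*, which went the other way with 0, 82 and 63 counts against 0, 0 and 0. How reads were divided between these copies is not known, so the ratio is uncertain to that extent. *Ighv13-2* had 0, 0 and 4 counts against 287, 90 and 51 (6.93 ± 0.69, edgeR adjusted p = 4.25e-06). *Ighv13-2* is the only member of its family in the set and the least copied of the 9, with 79.8% identity to its nearest relative and no shared 50-base window. Together with *Ighv1-22*, these 7 higher genes took 3.39%, 3.75% and 3.60% of *Ighv* counts in the control libraries and 25.3%, 31.6% and 22.8% in the Ezh2 libraries. They were picked for being higher in these same libraries, so the direction of these shares was set by the choice. The shares only show how much of the use these genes held.

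**Figure D3:**
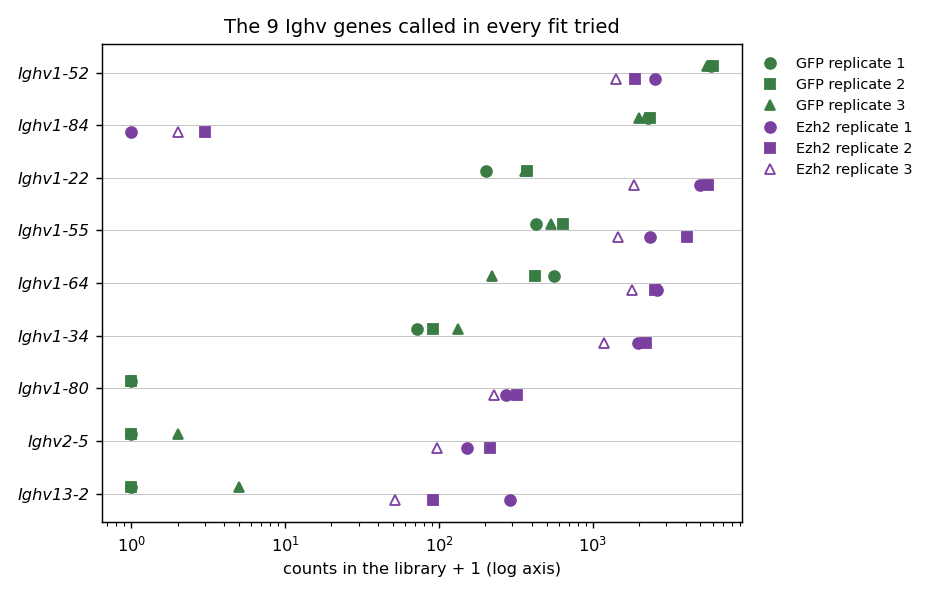
Counts plus 1 (x axis, log axis) of the 9 *Ighv* genes called in the main fit and in all 13 alternative fits (y axis), with 1 point per library, green for the control group and purple for the Ezh2 group (open triangle, Ezh2 replicate 3). The 2 genes at the top are lower and the other 7 higher in all 3 Ezh2 libraries, and points at 1 on the axis stand for a count of 0, where points of several libraries coincide.

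Other calls of the main fit were lost in at least 1 alternative. *Ighv7-3* had 5, 371 and 202 counts in the control libraries and 2721, 3009 and 1737 in the Ezh2 libraries (3.79 ± 0.45, edgeR adjusted p = 2.54e-05). It did not overlap between the groups, and its call held in 10 of 13 alternatives. *Ighv1-63* had 265, 350 and 113 counts against 0 in all 3 Ezh2 libraries, at least 87.3-fold lower in replicates 1 and 2 (edgeR adjusted p = 9.69e-07), and kept its call in 12 of 13. *Ighv1-76* rose from 135, 101 and 245 counts to 1090, 371 and 331 (2.10 ± 0.36, edgeR adjusted p = 6.55e-04) and kept its call in 10 of 13, while *Ighv1-82* had 123, 112 and 60 counts against 512, 132 and 324 (1.63 ± 0.40, edgeR adjusted p = 0.00962) and kept it in 7 of 13.

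Among the members called lower, several were uneven within a group. *Ighv3-1* had 1298, 336 and 501 counts in the control libraries but 1, 0 and 69 in the Ezh2 libraries (edgeR adjusted p = 2.50e-06), and its log2 fold change shrank from -10.26 to -5.05 when Ezh2 replicate 3 was added, with the call kept in 11 of 13 alternatives. *Ighv9-1* had 37, 446 and 686 counts against 0, 126 and 512, and its value went from -2.75 ± 0.89 (edgeR adjusted p = 0.0446) to -0.997 with 6 libraries, where it was not called. *Ighv5-4* had 130, 1 and 129 counts against 0, 0 and 134. *Ighv5-4* and *Ighv5-9*, with 30, 146 and 0 counts against 0, 2 and 137, were not called once Ezh2 replicate 3 was added. *Ighv3-3*, with 97, 3 and 221 counts, and *Ighv5-15*, with 146, 82 and 0, were at 0 in every Ezh2 library, and with 6 libraries they had too few counts to be tested.

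Including Ezh2 replicate 3, 9 of the 28 called members overlapped between the groups. Over all 79 members, 21 (26.6%) had no overlap between 3 and 3 libraries, 14 with the Ezh2 libraries above and 7 below. This was not more than the 31.8% of all genes with 10 or more counts in a library that had no overlap (13.8% above and 18% below). Separation of the groups alone was thus no more frequent among the members than over all genes.

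Detection was patchy within groups as well. Only 24 members had 10 or more counts in all 6 libraries, and these held 83.8% of *Ighv* counts, whereas 10 members reached 10 counts in a single library and held 0.266%. In 49 members at least 1 library was at 0, and 18 were at 0 in 1 library with 100 or more counts in another library of the same group. *Ighv1-85*, for instance, had 0, 115 and 52 counts in the control libraries and 0, 318 and 0 in the Ezh2 libraries. *Ighv14-4* was the only member with 100 or more counts in a library and over 10 times the count of every other, with 108 counts in Ezh2 replicate 3 and 5, 6, 1, 0 and 0 elsewhere. At the edge of the count limit, *Ighv8-2* entered with 10 counts in GFP replicate 1 and 0, 0, 2, 0 and 5 in the others, and the pseudogene *Ighv1-21* stayed just outside with at most 9.

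Presence and absence followed the groups in 5 of 79 members. *Ighv1-63* and *Ighv1-84* had 10 or more counts in every control library and at most 3 in every Ezh2 library. *Ighv2-5*, *Ighv1-71* and *Ighv1-80* had the reverse. *Ighv1-71* had 0, 0 and 0 counts against 23, 102 and 10, but as noted its sequence is almost that of *Ighv1-62-2*, which had 0, 0 and 0 counts against 52, 0 and 26. *Ighv2-5* is limited likewise by its near copy *Ighv2-4*, which had 0, 82 and 63 counts against 0, 0 and 0. These 5 members follow from the count limits given here and were picked out after their values were seen. The share of all genes that meet the same limits was not counted.

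By family, which groups V genes of like sequence, use was steady in the largest and shifted in several small ones. Family *Ighv1*, with 41 members, took 63.6%, 70.8% and 69.5% of counts in the control libraries and 69.5%, 72.1% and 66.8% in the Ezh2 libraries. Family *Ighv3*, with 5 members including *Ighv3-6*, took 23.2%, 12.8% and 15.5% against 9.999%, 6.81% and 10.7%, so every Ezh2 library lay below the control libraries. Family *Ighv7*, mostly *Ighv7-3*, took 0.0189%, 1.12% and 0.581% against 5.44%, 6.53% and 5.96%. Family *Ighv8*, with 4 members, took 3.55%, 5.46% and 3.49% against 7.46%, 6.84% and 5.79%, and *Ighv10* and *Ighv13* were also above in all Ezh2 libraries at under 1% each. The other 6 families overlapped between the groups. The steady share of *Ighv1* hid opposite changes within it, as 10 of its 35 tested members were called higher and 5 lower.

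Position along the locus was compared too, by dividing all 185 *Ighv* genes into a proximal, a middle and a distal section of 61 or 62 genes, in order from the constant region outward. The middle section, with 19 members, took 14.1%, 19.8% and 21.5% of counts in the control libraries and 35.2%, 39.9% and 35.2% in the Ezh2 libraries. The distal section, with 32 members, took 53.4%, 59.1% and 52.8% against 43.4%, 39.8% and 39.4%. The proximal section, with 28 members, overlapped, at 21.1% to 32.6% and 20.2% to 25.3%. In the middle section 4 of 15 tested members were called, all of them higher. In the distal section 9 of 28 were called higher and 5 lower, and in the proximal section 3 of 22 higher and 7 lower.

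**Figure D4:**
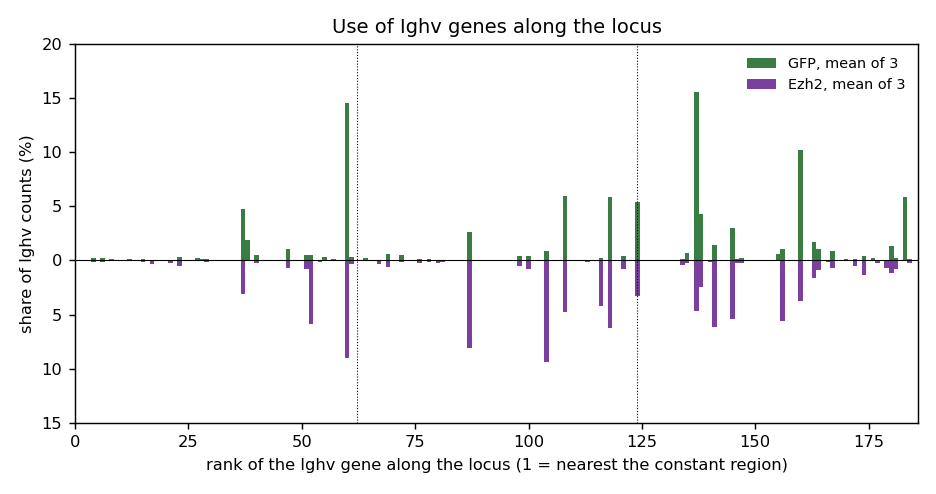
Mean share of *Ighv* counts (y axis, percent) of each member in the 3 control libraries (green, upward) and the 3 Ezh2 libraries (purple, downward), ordered by rank of the gene along the locus (x axis, 1 nearest the constant region). Dotted lines divide the 185 genes into the proximal, middle and distal sections, and single tall bars such as *Ighv3-6* at rank 60, *Ighv1-22* at rank 104 and *Ighv1-84* at rank 183, which has an upward bar only, carry most of the use.

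Usage was then compared between every pair of libraries, as the share of *Ighv* counts that both spend on the same genes. Pairs of control libraries shared 79.7% to 83.0% (mean 81.0%, 3 pairs) and pairs of Ezh2 libraries 79.1% to 83.1% (mean 81.5%, 3 pairs). Pairs of 1 control and 1 Ezh2 library shared 46.7% to 60.8% (mean 54.7%, 9 pairs), so every pair within a group shared more than any pair between groups. Ezh2 replicate 3 resembled the other Ezh2 libraries in its *Ighv* use, at 83.1% and 79.1%, although T cell genes set it apart. Over the 79 genes, Pearson's r of log2 shares was 0.808 to 0.825 within the control group, 0.830 to 0.889 within the Ezh2 group and 0.591 to 0.690 between groups. These r values describe the libraries, since genes of a library share its depth and related sequences.

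The light chain showed a like split. For 77 *Igkv* genes, the V genes of the kappa light chain that pairs with the heavy chain, the shared use averaged 80.0% within the control group, 80.9% within the Ezh2 group and 59.8% between them. For 61 T cell receptor V genes of the *Trav* and *Trbv* groups the means were 80.9%, 72.4% and 74.2%, and their ranges overlapped. For the 21992 other genes with 10 or more counts in a library they were 97.2%, 92.3% and 91.1%. No pair of libraries looked like a repeat deposit, since counts of the members differed within groups far beyond sampling noise, with chi-square values per degree of freedom of 86.9 to 111. Whether libraries of a group shared animals or cell pools was not tested.

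**Figure D5:**
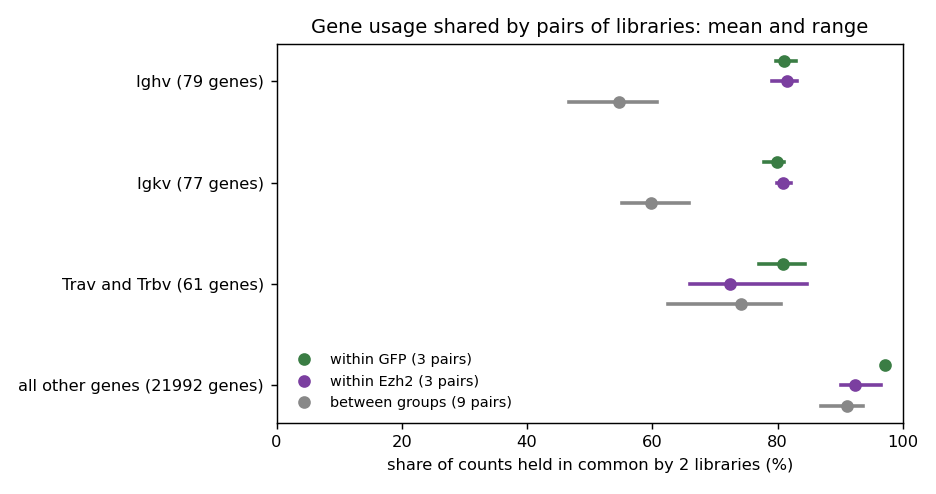
Share of counts that 2 libraries spend on the same genes (x axis, percent; points are means and lines ranges over pairs) for *Ighv*, *Igkv*, T cell receptor V genes and all other genes (y axis), within the control group, within the Ezh2 group and between groups. For *Ighv* the between-group mean of 54.7% lies well below 81.0% and 81.5%, whereas for T cell receptor V genes the ranges overlap.

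Constant region and joining chain genes were called less often than the V genes, 2 of 12, beside 3.73% of all genes. At adjusted p under 0.05 alone 5 were called, 4 of them higher, beside 3330 of 20241 tested genes, 1899 of them higher. Of 12 tested constant region and joining chain genes, *Ighg2b*, of an IgG class, was called higher, with 20254, 21201 and 20882 counts in the control libraries and 42145, 34366 and 17800 in the Ezh2 libraries (0.78 ± 0.08, edgeR adjusted p = 3.36e-06). *Ighd*, of IgD, was called lower, with 274, 22 and 141 counts against 38, 32 and 5 (-2.17 ± 0.64, edgeR adjusted p = 0.0289). Neither call held with 6 libraries. Another of the 5 genes at adjusted p under 0.05, higher at a fold under the threshold, stayed under 0.05 with 6 libraries. The median log2 fold change of the 12 tested genes was 0.14, against -0.01 over all tested genes. Of heavy chain constant counts, *Igha* made up 36.3%, 38.8% and 36.6% in the control libraries and 27.3%, 28.1% and 30.3% in the Ezh2 libraries, *Ighg2c* 34.4% to 38.1% in all 6, and *Ighm* 9.85% to 12.0% against 11.9% to 17.9%.

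Markers of the cells that transcribe these genes were detected in every library. B cell markers (12 tested) summed to 94.3 to 109 CPM in the control libraries and 84.1 to 121 CPM in the Ezh2 libraries. Only *Cd22*, an inhibitory coreceptor of B cells, was called, with 439, 465 and 418 counts against 824, 1082 and 803 (1.00 ± 0.10, edgeR adjusted p = 4.66e-06). *Cd79a*, part of the B cell receptor, had 161 to 223 counts. Of 8 plasma cell markers 0 were called in edgeR's test and 0 in DESeq2, and 4 had an unadjusted p under 0.05 in edgeR. *Xbp1*, *Prdm1* and *Irf4* were among these, all higher at folds under the threshold (edgeR adjusted p = 0.00801, 0.00395 and 0.00742). With 6 libraries their edgeR adjusted p values were 0.206, 0.0763 and 0.152. *Tnfrsf17*, a receptor of plasma cells and the last of the 4 with an unadjusted p under 0.05, was lower. It had 21, 11 and 8 counts against 3, 6 and 3 (-1.65 ± 0.77, edgeR adjusted p = 0.170). The summed level of the list was 670 to 716 CPM against 703 to 871 CPM. Most of it was *Jchain*, the chain that joins secreted antibodies, except in Ezh2 replicate 3, where *Irf4* reached 419 CPM and *Jchain* 269 CPM. *Jchain* had 13539 to 15520 counts in the control libraries and 15440, 15723 and 9694 in the Ezh2 libraries. The recombination genes *Rag1* and *Dntt* had 34 to 111 counts, with edgeR adjusted p values of 0.367 and 0.941. Of 11 T cell markers edgeR called *Cd8a* (1.38 ± 0.08, adjusted p = 1.40e-08), and 10 had an unadjusted p under 0.05. These 10 were all higher, with edgeR adjusted p values of at most 0.0183, and all but *Cd8a* lay under the fold threshold. With 6 libraries most of them had an adjusted p above 0.05. Of 8 tested RGC markers edgeR and DESeq2 called 0, and 3 had an unadjusted p under 0.05 in edgeR, all of them higher. For *Nefl* and *Thy1* among these the edgeR adjusted p was also under 0.05, at folds under the threshold. With 6 libraries *Nefl* was called higher, barely over the threshold (0.585 ± 0.120, edgeR adjusted p = 0.0341), and *Thy1* was not called (edgeR adjusted p = 0.0868). Red blood cell markers summed to at most 0.584 CPM and neutrophil markers to at most 1.47 CPM. The part of any of these cells in the difference in V gene use was not tested.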

How the data were processed

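Stranded total RNA libraries were made, per the labels. The authors deposited 1 table of raw read counts per Ensembl gene, and 0 of its columns lacked a sample. STAR 2.7.0d and build GRCm38 come from the submitters' processing notes. The counting program, annotation release and strand setting were not given in the sources used here. Of 55573 identifiers, 55480 matched GENCODE M21 of the same build.

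Counts of 5 libraries entered the main fit, without Ezh2 replicate 3, whose exclusion by the study was inferred. It used filterByExpr, TMM factors, group as the only term and the two-sided quasi-likelihood test (glmQLFit, glmQLFTest) of edgeR 4.0.16 in R 4.3.3. Standard errors came from the F statistic. On simulated counts with 1 spread for all genes, the fit recovered 187 of 200 changed genes among 19828, with 3 false calls. The members varied more between libraries than most genes did, so these numbers do not measure false calls among them. Alternatives were all 6 libraries, leaving out each library, a replicate block, DESeq2 1.42.0, RLE factors, no filter, a mean of at least 50 counts, adjusted p alone and summed copies of 97% identity. Robust estimation and the block with 6 libraries were added after the data were seen. The 13 alternative fits leave out adjusted p alone and summed copies.

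Usage (percent of summed member counts) and pair values are descriptions. Shares entered correlations as log2(percent + 0.1). Transcripts were aligned with Biopython 1.88, and plots used matplotlib 3.10.9. Marker lists covered constant regions, B, plasma, T and red blood cells, neutrophils, recombination genes and RGCs. The single result of 1 listed gene is not reported here. Genes named were the 10 most used members, each library's leader, the 10 most abundant called higher and lower, members nearly private to a library, those at the count limit and list genes. Members called in every fit, present in 1 group only, uneven within a group or shown as copies were added after their values were seen. The members and lists were chosen with earlier results of these data known. Ratios of summed counts carry 95% exact intervals for counting error only.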

Additional observations from a re-analysis of the deposited data

How the results depend on the processing

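The split in *Ighv* use between the groups held in every alternative tried. The mean shared use within groups exceeded that between groups by 26.5 percentage points, and by 24.4 to 27.9 without any single library, the lowest being without Ezh2 replicate 2. The mean r within groups exceeded that between groups by 0.191, by 0.197 with a prior of 0.01 percent and by 0.244 with a prior of 1 percent. Inverse Simpson numbers over all 185 *Ighv* genes stayed within the spread between libraries, and since 0 members were pseudogenes, leaving pseudogenes out changed no value.

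The number of calls was less stable. For 28 called of 65 tested members (16 higher, 12 lower), all 6 libraries gave 13 of 57 (9 and 4) and DESeq2 18 of 65 (10 higher). Robust estimation gave 11 of 65 (9 and 2) and no filter 55 of 79 (30 and 25). Summing copies of 97% identity gave 26 of 62. For 754 of 20241 genes (496 higher, 258 lower), all 6 libraries gave 476 of 19732 (316 and 160). DESeq2 gave 692, robust estimation 770 and adjusted p alone 3330 (1899 and 1431), each of 20241. No filter gave 921 of 32161. Of the 28 members, 13 of 23 tested kept their call with 6 libraries, 11 with robust estimation and 18 with DESeq2, which gave *Ighv1-71* no adjusted p. Leaving out 1 library kept 23 or 24. The cause of the lost calls was not tested.

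Replicate numbers did not pair the libraries, as same-numbered libraries had correlations of deviations of -0.013, -0.011 and -0.0066 over all tested genes, and 0 libraries correlated best with their own number. With the replicate block, 43 of 65 tested members were called (19 lower), beside 724 of 20241 genes. *Ighv3-6* was among the 43 at -0.62 (edgeR adjusted p = 3.33e-09). The block with 6 libraries called 11 of 57 tested members (7 and 4) and 274 of 19732 genes (186 and 88).

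For constant region genes (1 called higher, 1 lower), all 6 libraries, with or without the block, gave 0 calls, 0 higher and 0 lower. DESeq2 and robust estimation gave 1 call, 0 lower, and adjusted p alone 5 (4 higher). Leaving out 1 library gave 0 to 2 calls, 0 to 1 higher and 0 to 1 lower, with 0 calls without Ezh2 replicate 1. For B and plasma cell genes (1 higher), adjusted p alone gave 4, all higher, and leaving out 1 library 1 to 2, all higher, with 2 without GFP replicate 2. Log2 fold changes of *Ighv1-42* ran from -0.77 to 0.24 and of *Ighv4-1* from -0.70 to 0.061 when 1 library was left out, both turning positive without Ezh2 replicate 2. Depth limits members under 3 counts, whose absence cannot be told from a low level.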
